A study of Oryza sativa Japonica Group with 17 samples.

Results

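Roots of homozygous gs1;1 plants from the rice line ND8037 were compared with roots of ND8037 null plants, their segregants without the insertion. The comparison was taken from the sample titles and holds 6 of the 17 arrays of the study, 3 of gs1;1 plants (numbers 123, 124 and 125) and 3 of null plants (numbers 156, 157 and 158). Both groups are cultivar Nipponbare (Oryza sativa Japonica Group), descend from a heterozygous ND8037 plant, and were harvested on day 18 of water culture with 1 mM ammonium chloride as the nitrogen source. The gs1;1 group is homozygous for the insertion in OsGS1;1 and the null group lacks it. ND8037 is an insertion line, and whether it carries further insertions was not tested. The labels give neither the site nor the kind of the insertion in OsGS1;1. The other 11 arrays hold a second gs1;1 line, NC2373 (2 homozygotes and 3 nulls, grown in the same way), wild type and a gs1;2 mutant. The labels name the samples of a group biological replicates.

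Glutamine synthetase joins ammonium to glutamate and makes glutamine. In roots fed ammonium the cytosolic isoforms (GS1) carry most of this first step, and glutamate synthase (GOGAT) then passes the amide nitrogen on to 2-oxoglutarate. Ammonium enters root cells through transporters of the AMT family, and glutamate dehydrogenase (GDH) links glutamate to the organic acids of the citrate cycle.

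Values below are RMA (robust multi-array average) signals on the log2 scale, 1 array per plant, in the order 123, 124, 125 for gs1;1 and 156, 157, 158 for null. A difference is the gs1;1 mean minus the null mean (n = 3 each) in log2 units, with the standard error (SE) and the Benjamini-Hochberg adjusted p of limma over all 57258 probe sets. A gene is said to rise or fall, or is called, where the adjusted p is under 0.05. Arrays of gs1;1 plants correlated with each other at 0.9925 to 0.9963 over all probe sets, null arrays at 0.9945 to 0.9960, and arrays of different groups at 0.9851 to 0.9922. Plant 123 had the lowest correlations of the 6. The 3' minus 5' signals of control transcripts, a sign of RNA quality or labelling, differed for ef1a (-2.06, -1.93 and -1.92 in gs1;1, -1.74, -1.64 and -1.79 in null) and for ubiquitin (-0.38, -0.33 and -0.32 against -0.29, -0.27 and -0.21) with no overlap of the groups. Those of actin, GAPDH and cyclophilin overlapped. Lsi1, the silicon influx transporter of roots, read 12.38 to 12.86 on the 6 arrays, and the root and leaf marker lists are described further on.

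The disrupted gene was lower in every gs1;1 plant. OsGS1;1 (probe set Os.7909.1.S1_at, gene name OsGLN1;1 in RefSeq) read 8.16, 8.00 and 8.03 in gs1;1 and 10.77, 10.17 and 9.96 in null. The 3 mutants lay within a narrow band below all 3 nulls, and among the nulls plant 156 was highest. OsGS1;1 fell by 2.24 (SE 0.19, adjusted p = 0.0040, 95% interval -2.67 to -1.80), which is 4.71-fold lower, and the call held without each plant in turn (-2.40 to -2.00). A signal near 8 left in the mutants does not tell whether a full transcript remains.

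The other cytosolic isoforms showed no called change. OsGS1;2, the GS1 gene disrupted in the gs1;2 mutant of the study, read 12.29, 12.85 and 12.57 in gs1;1 and 12.26, 12.50 and 12.40 in null. These groups overlapped, and the difference was 0.18 (adjusted p = 0.5252, interval -0.16 to 0.52). OsGS1;3 read between 4.15 and 4.82 in all 6 plants, with a difference of -0.02 (adjusted p = 0.9657, interval -0.42 to 0.39).

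Plastid OsGS2 read 10.56, 9.80 and 9.34 in gs1;1 and 8.39, 9.03 and 8.90 in null. Every mutant lay above every null, with plant 123 farthest up, but the difference of 1.13 (SE 0.30, interval 0.44 to 1.81) was not called (adjusted p = 0.0672). A second probe set of the gene gave 0.36 (adjusted p = 0.1549). Its order of mutants, plant 123 highest and plant 125 lowest, was that of most photosynthesis genes described further on.

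GLT2, an NADH-dependent glutamate synthase, was the only assimilation gene called higher. It read 4.40, 4.62 and 4.37 in gs1;1 and 3.86, 4.02 and 3.89 in null, a rise of 0.54 (SE 0.10, adjusted p = 0.0250) at a low signal. The call ended without plant 124, 156, 157 or 158, with an adjusted p of up to 0.0954, and with all 17 arrays in the fit (adjusted p = 0.2590). Fd-GOGAT, the ferredoxin-dependent form, differed by 0.00 (adjusted p = 0.9860). OsGDH1 read 11.07, 11.34 and 11.41 against 11.63, 11.69 and 11.77, all mutants under all nulls, and its difference of -0.43 was not called (adjusted p = 0.0641). OsGDH2 and OsGDH3 stood at -0.16 and -0.02 with overlapping groups.

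Of the 9 assimilation genes measured, 1 rose and 1 fell (11.1% each), and the median difference was -0.02. Over all 17905 genes, with the brightest probe set for each, 6.29% were called higher and 4.49% lower, with a median of 0.00. Groups without overlap were found in 2 of the 9 genes upward and 2 downward, against 20.8% of all genes in either direction.

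**Figure D1:**
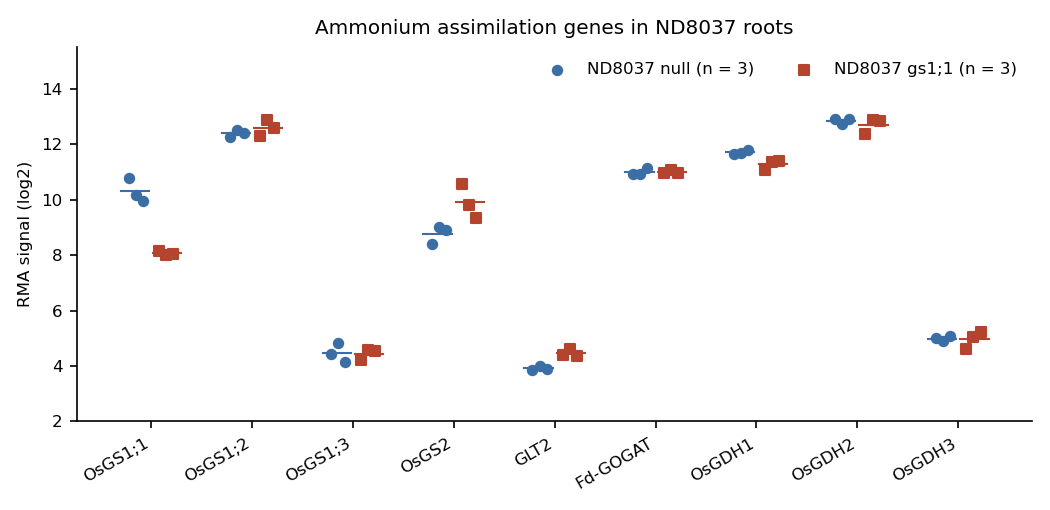
RMA signal (log2, vertical axis) of the 9 ammonium assimilation genes in each ND8037 null plant (blue circles) and gs1;1 plant (red squares), with a line at each group mean (n = 3). OsGS1;1 is lower in all 3 mutants (8.00 to 8.16) than in the nulls (9.96 to 10.77), OsGS2 is higher without a call, and OsGS1;2 overlaps.

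No ammonium transporter changed at the threshold. Of 8 AMT genes, limma called 0 in either direction, against 6.29% higher and 4.49% lower of all genes. Of the 8, 1 lay above 0 and 1 below 0 at an unadjusted p under 0.05. At that cut there were 12783 of 57258 probe sets in both directions together. A fit with an intensity trend and robust prior also called 0 AMT genes. OsAMT3;2 read 8.19, 8.40 and 8.69 in gs1;1 and 8.83, 8.83 and 9.00 in null. It was the only 1 of the 8 AMT genes whose groups did not overlap, against 20.8% of all genes either way. Its difference was -0.46 (adjusted p = 0.0887, interval -0.77 to -0.15). OsAMT2;1 differed by 0.51 (adjusted p = 0.1680, interval 0.06 to 0.96) and OsAMT2;3 by 0.38 (adjusted p = 0.2717). OsAMT1, read at 9.40 to 9.75, differed by 0.10 (interval -0.15 to 0.35), and OsAMT1;2, OsAMT2;2, OsAMT3;1 and OsAMT3;3 lay between -0.17 and 0.15.

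The nitrate list gave 0 calls among 4 genes, against 6.29% called higher and 4.49% lower of all genes. Of the 4, 1 lay above 0 and 2 below 0 at an unadjusted p under 0.05, against 12783 of 57258 probe sets in both directions together. Without overlap 1 lay higher and 3 lower, against 20.8% of all genes either way. NIA1, a nitrate reductase, read 7.57, 6.57 and 6.74 in gs1;1 and 5.85, 6.37 and 5.65 in null, a difference of 1.00 (adjusted p = 0.0745). The nitrate transporter OsNRT2.2 (7.35, 8.52 and 8.26 against 9.02, 8.63 and 9.06) and its partner protein OsNAR2.2 (5.59, 5.89 and 5.64 against 6.12, 6.71 and 6.25) lay lower in every mutant. Their differences were -0.86 (adjusted p = 0.1148) and -0.65 (adjusted p = 0.0574).

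Across the array, 3213 of 57258 probe sets were called (5.61%), 1786 higher (3.12%) and 1427 lower (2.49%), and 621 of these differed by at least 2-fold. There were 12783 at an unadjusted p under 0.05, a share that was not taken per gene or per direction. The count rested on every plant, and most on the nulls. It was 1919 without plant 123, 2076 without 124, 1901 without 125, 1061 without 156, 1057 without 157 and 602 without 158. All 3213 kept their sign in those 6 fits, and 499 kept the call in each. Below, a called gene is said to hold where it kept the call without each plant, and every other call ended in at least 1 of those fits. Without the moderation of variances that limma borrows across probe sets, 0 were called after adjustment (10713 at an unadjusted p under 0.05), and OsGS1;1 then had an adjusted p of 0.0941.

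The largest named fall was in a gene of the glyoxylate cycle. OsICL, isocitrate lyase, read 5.61, 4.46 and 4.90 in gs1;1 and 8.94, 7.70 and 9.16 in null. It fell by 3.61 (SE 0.41, adjusted p = 0.0067), 12.2-fold, with a gap of over 2 log2 units between the groups, and the call held. It was the only gene of that cycle measured under a name. ILL3, of the ILR1-like family that frees auxin from amino acid conjugates, read 5.70, 7.12 and 8.07 against 9.91, 10.81 and 9.76. It fell by 3.20 (SE 0.54, adjusted p = 0.0190). Plant 125 came nearest to the nulls, and the call ended without plant 156, 157 or 158 (adjusted p of up to 0.0707).

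OsPIN4 and OsPIN2, both of the PIN family of auxin efflux carriers, moved in opposite directions. OsPIN4 read 5.93, 6.19 and 5.66 in gs1;1 and 7.92, 8.00 and 7.86 in null, a fall of 2.00 (SE 0.14, adjusted p = 0.0020), 4.00-fold. OsPIN2 read 7.52, 7.12 and 7.59 against 6.29, 6.04 and 6.23, a rise of 1.22 (SE 0.14, adjusted p = 0.0069). Neither pair of groups overlapped, and both calls held. Of the 65 auxin genes 4 rose (6.15%) and 3 fell (4.62%), shares next to the 6.29% and 4.49% of all genes, with a median of -0.01. The response factors OsARF8, ARF9 and ARF4 rose by 0.72, 0.59 and 0.54, and ILL7 fell by 0.41.

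R1C-Prx, a 1-Cys peroxiredoxin of the kind known from seeds, read 7.26, 7.96 and 8.29 in gs1;1 and 10.32, 9.93 and 10.35 in null. It fell by 2.37 (SE 0.25, adjusted p = 0.0060, held). Other falls that held were those of OsGLU6 (-2.67), OsBURP02 of the BURP-domain proteins (-2.34), the actin-depolymerizing factor OsADF9 (-1.65), the tonoplast aquaporin OsTIP3 (-1.65), the sucrose synthase OsSUS5 (-1.37) and OsPM19L1 (-1.27), with adjusted p from 0.0055 to 0.0105. A second probe set of OsPM19L1 gave -0.08. RAB21, a dehydrin of water deficit and abscisic acid responses, fell by 1.51 (adjusted p = 0.0351). Its nulls spread from 6.48 to 7.96 and its mutants from 5.64 to 5.90. The seed storage list that was used to look for seed RNA (12 genes) had 0 calls, against 6.29% higher and 4.49% lower of all genes. Of the 12, 1 lay above 0 and 3 below 0 at an unadjusted p under 0.05, against 12783 of 57258 probe sets in both directions together. The mean level of the seed list was 4.99 to 5.04 in gs1;1 and 5.09 to 5.13 in null, and its part in these falls was not tested.

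Over all probe sets, 243 of the 1427 called falls held and 256 of the 1786 called rises. Of the 15 largest named falls 10 held, and of the 15 largest rises 2 did. These were mfs1 (2.03, adjusted p = 0.0063) and ENR (LOC4345286), which read 9.34, 9.33 and 9.94 in gs1;1 and 8.11, 7.90 and 8.10 in null and rose by 1.50 (adjusted p = 0.0067). OsADC2, an arginine decarboxylase of polyamine synthesis, rose by 2.32 (adjusted p = 0.0418). Its 6 values were 7.44, 8.11 and 9.51 against 6.83, 5.60 and 5.65, so plants 123 and 156 were only 0.61 apart, and its call ended without any plant but 123. OsCHS1, the chalcone synthase that opens flavonoid synthesis, rose by 1.52 on its brightest probe set (adjusted p = 0.0303), while its 5 probe sets ranged from -0.50 to 1.52. OsGRF1, a growth-regulating factor, rose by 1.64 and a gene named Agglutinin, after the lectins, by 1.53.

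Genes of the photosynthetic apparatus read higher in gs1;1 roots. OsrcaA1, the activase of Rubisco, read 11.45, 10.63 and 10.05 in gs1;1 and 7.85, 8.74 and 8.76 in null. It rose by 2.26 (SE 0.36, adjusted p = 0.0163), 4.78-fold, with its 4 probe sets between 2.26 and 2.44. Plant 123 was highest and plant 125 lowest of the mutants, while plant 156 was lowest of the nulls. The call ended without plant 156 or 158 (adjusted p of up to 0.0565). OsrbcS, a Rubisco small subunit, read 12.56, 11.46 and 10.60 against 8.90, 9.85 and 9.81 and rose by 2.02 (SE 0.46, adjusted p = 0.0449). Its 4 probe sets ranged from 0.14 to 2.02, and its call was kept only without plant 125. LFNR1, a leaf ferredoxin-NADP reductase, read 9.07, 7.81 and 7.14 against 5.78, 6.18 and 6.39 and rose by 1.89 (SE 0.42, adjusted p = 0.0427), a call kept only without plant 123 or 125.

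Of the 12 photosynthesis genes 3 rose (25.0%) and 0 fell by limma, against 6.29% and 4.49% of all genes. At an unadjusted p under 0.05, 10 lay above 0 and 0 below 0, against 12783 of 57258 probe sets in both directions together. The median difference was 0.75, and 9 of the 12 had all mutants above all nulls, against 20.8% of all genes. Not called were the light-harvesting gene LHCP (LOC4333359) at 1.08 (adjusted p = 0.0732), PSB28 of photosystem II at 1.38 (adjusted p = 0.0797), CAB2R at 0.62 (adjusted p = 0.0567) and OsPSAG at -0.13. The order of the mutants was shared, with plant 123 highest in 11 of the 12 genes and plant 125 lowest in 11. The count of rises was 2 without plant 123, 1 without 124, 4 without 125, 0 without 156, 1 without 157 and 0 without 158, and the median stayed between 0.52 and 1.02.

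Chlorophyll synthesis genes lay on the same side. CHLG, the chlorophyll synthase of the last step, read 9.15, 8.53 and 8.28 in gs1;1 and 7.49, 7.74 and 7.62 in null, a rise of 1.03 (SE 0.21, adjusted p = 0.0301). GluTR, which reduces glutamyl-tRNA at the entry of the pathway, read 10.76, 10.28 and 10.08 against 9.31, 9.67 and 9.58, a rise of 0.85 (SE 0.18, adjusted p = 0.0358). The call of CHLG was kept only without plant 123 or 125, and that of GluTR only without 125. No other member of the 18 was called, and 0 fell, so 11.1% rose, against 6.29% of all genes. At an unadjusted p under 0.05, 10 lay above 0 and 0 below 0, against 12783 of 57258 probe sets in both directions together. PORA, the light-dependent protochlorophyllide reductase, stood at 1.74 (adjusted p = 0.0729), PPOX1 at 1.62 (adjusted p = 0.0523), CHLP at 1.09 (adjusted p = 0.0606) and OsGLK1, a transcription factor of chloroplast genes, at 0.68 (adjusted p = 0.2096). The median was 0.58, and 17 of 18 differences were above 0, against 50.1% of all genes. In 11 all mutants lay above all nulls, against 20.8% of all genes. Plant 123 was the highest mutant in 17 of the 18. The count was 0 without plant 124, 156, 157 or 158 and 5 without plant 125.

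Whether green or shoot tissue entered the samples was not tested, and in whole roots fewer cells of a type and less RNA per cell cannot be told apart. Most members of the leaf marker list are also photosynthesis genes. Its mean was 10.05, 9.52 and 9.09 in gs1;1 and 8.27, 8.86 and 8.78 in null. Of its 8 genes 2 were called higher (25.0%, against 6.29% of all genes). RBCS1 was near the lowest signals of the array on all 6 (1.93 to 2.25). The root marker list had a mean of 7.32, 7.68 and 7.63 in gs1;1 and 7.92, 7.83 and 7.87 in null. Of its 10 genes 6 lay lower and 2 higher with no overlap (OsSCR1 at 0.17 and OsIRT1 at 0.34), against 20.8% of all genes either way, and 1 was called, the phosphate transporter listed as PHT1-2 (LOC4335115, also OsPht1;4) at -0.69. Lsi2, a silicon efflux transporter, read 10.12, 10.71 and 10.93 against 11.20, 11.31 and 11.35. Plant 123 thus had the highest leaf mean and the lowest root mean of the 6 plants.

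**Figure D2:**
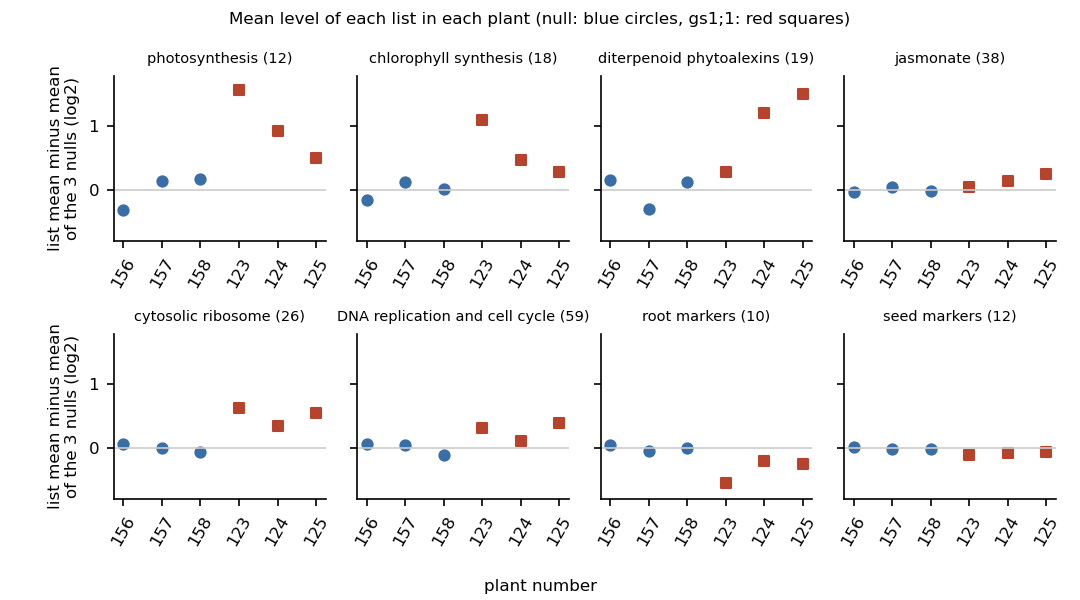
Mean RMA signal of 8 gene lists in each plant, as the difference from the mean of the 3 nulls (log2, vertical axis), for null plants 156 to 158 (blue circles) and gs1;1 plants 123 to 125 (red squares), with the number of genes in brackets. Plant 123 is highest for photosynthesis and chlorophyll synthesis and lowest of the mutants for diterpenoid phytoalexins, and plant 124 is the lowest mutant for the ribosome and cell cycle lists.

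Diterpenoid phytoalexins are antimicrobial and allelopathic compounds of rice, among them the momilactones, made from geranylgeranyl diphosphate by copalyl diphosphate synthases (CPS), kaurene synthase-like cyclases (KSL) and cytochromes P450. OsCPS4, which makes the syn-copalyl diphosphate of the momilactone branch, read 7.98, 8.68 and 9.53 in gs1;1 and 6.67, 5.93 and 6.45 in null. It rose by 2.38 (SE 0.36, adjusted p = 0.0138), 5.21-fold. CYP99A3, a P450 of the same branch, read 9.61, 9.94 and 10.60 against 8.56, 7.78 and 7.97 and rose by 1.95 (SE 0.28, adjusted p = 0.0117). In both genes plant 125 was the highest mutant and plant 123 the lowest, and all 3 lay above the nulls. OsMAS, momilactone A synthase, read 6.81, 7.48 and 8.39 against 5.67, 5.30 and 6.18 and rose by 1.85 (SE 0.38, adjusted p = 0.0323).

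OsKSL4, the cyclase after OsCPS4, read 4.96, 6.81 and 8.69 in gs1;1 and 3.95, 3.37 and 5.43 in null. Plant 123 lay under null plant 158, and the difference of 2.57 was not called (adjusted p = 0.1305). CYP99A2 at 1.41 was not called either (adjusted p = 0.3525). In the RefSeq gene order OsCPS4, CYP99A3, OsMAS, OsKSL4 and CYP99A2 follow each other with 1 other protein-coding gene among them, between CYP99A3 and OsMAS. OsKO5 and OsKO4, of the kaurene oxidase family, are neighbours in another place. OsKO5 read 6.37, 5.70 and 6.75 against 4.79, 3.85 and 3.81 and rose by 2.12 (SE 0.32, adjusted p = 0.0139), while OsKO4 (4.81, 7.50 and 8.37 against 3.96, 3.39 and 5.12) stood at 2.74 with overlap (adjusted p = 0.0986). A further group of neighbours that holds OsCPS2, OsKSL7, CYP71Z7 and CYP76M genes had 0 calls. OsCPS2 stood at 1.13, OsKSL7 at 1.17 and CYP71Z7 at 1.29, and CYP76M5, CYP76M8, CYP71Z6, OsKSL5 and CYP76M6 between -0.21 and 0.30.

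Of the 19 phytoalexin genes 4 rose (21.1%) and none fell, against 6.29% and 4.49% of all genes. At an unadjusted p under 0.05, 8 lay above 0 and 0 below 0, against 12783 of 57258 probe sets in both directions together. The median difference was 1.13, and 14 were above 0 (73.7%, against 50.1% of all genes). Plant 123 was the lowest mutant in 16 of the 19 genes and plant 125 the highest in 11, an order opposite to that of the photosynthesis genes. The count was 9 without plant 123, 3 without 124, 4 without 125, 3 without 156, 1 without 157 and 0 without 158, and the median ranged from 0.72 to 1.86. The calls of OsCPS4 and OsKO5 ended without plant 157 or 158, that of CYP99A3 without 158, and that of OsMAS without 124, 156, 157 or 158. DXPS (LOC4342614), of the plastid route that supplies isoprenoid precursors, read 7.08, 8.05 and 8.89 against 6.19, 5.36 and 5.66. It rose by 2.27 (SE 0.41, adjusted p = 0.0235), with the same order of mutants.

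Calls among the iron acquisition genes lay on both sides. Grass roots take up iron as a chelate with mugineic acids, which are made through nicotianamine. YSL15, the importer of the chelate, read 8.49, 9.24 and 8.51 in gs1;1 and 6.65, 7.65 and 7.57 in null. It rose by 1.46 (SE 0.30, adjusted p = 0.0319), with all mutants above all nulls, and the call ended whichever plant was left out (adjusted p of up to 0.0808). OsNAAT1, the nicotianamine aminotransferase, read 10.16, 11.07 and 10.63 against 8.71, 9.36 and 9.45 and rose by 1.45 (SE 0.26, adjusted p = 0.0221), a call kept only without plant 123. OsNAS1, a nicotianamine synthase, read 10.79, 11.12 and 10.52 against 6.55, 9.50 and 8.80. Its null plant 156 lay over 2 log2 units below the other nulls, and its difference of 2.53 (SE 0.64) was not called (adjusted p = 0.0605). OsNAS2 at 1.77 (adjusted p = 0.0760) and the metal transporter OsNramp1 at 1.33 (adjusted p = 0.1053) were not called.

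The third nicotianamine synthase gene went the other way. OsNAS3 read 9.10, 9.08 and 8.99 in gs1;1 and 9.67, 9.98 and 9.73 in null and fell by 0.73 (SE 0.11, adjusted p = 0.0122). OsYSL13, of the yellow stripe-like transporters, read 8.18, 8.69 and 8.57 against 9.46, 9.74 and 9.57 and fell by 1.11 (SE 0.15, adjusted p = 0.0098). These 2 falls held, while none of the 4 rises of the list did. OsVIT1, a vacuolar iron transporter, rose by 0.92 and OsIRT2, a ferrous iron transporter, by 0.98. In all, 4 of 26 rose (15.4%) and 2 fell (7.69%), against 6.29% and 4.49% of all genes, with a median of 0.04. Without overlap 11 lay higher (42.3%) and 7 lower (26.9%), against 20.8% of all genes either way. The count of rises was 2 without plant 123, 0 without 124, 2 without 125, 1 without 156 or 157 and 0 without 158, and the falls numbered 3 without 123 and 2 without each of the others.

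**Figure D3:**
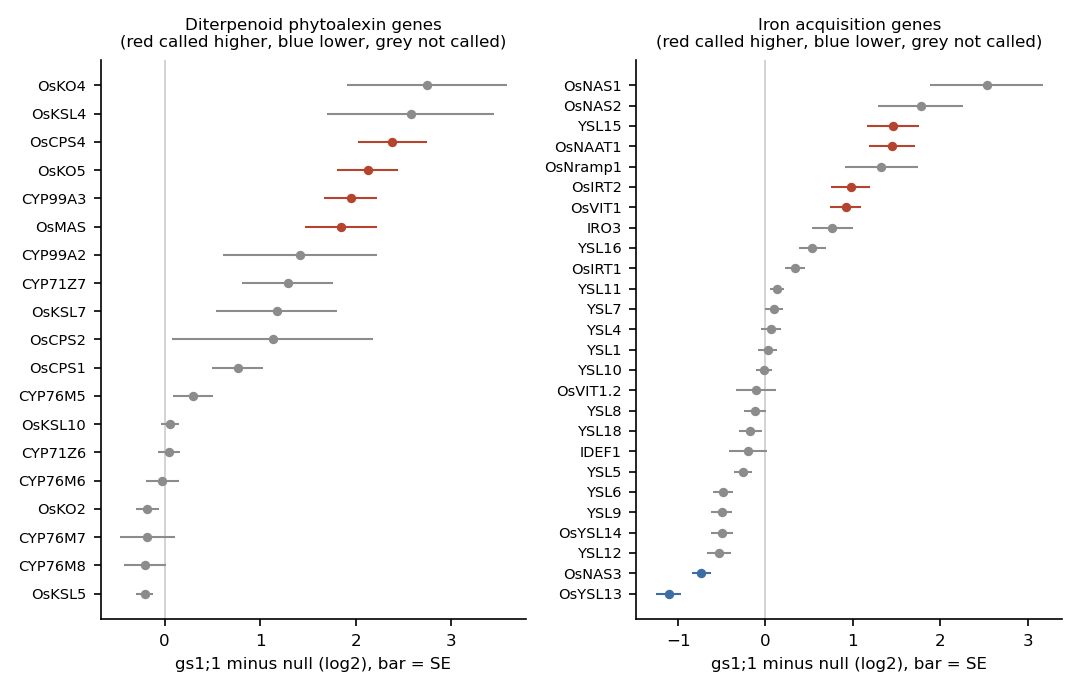
Difference of gs1;1 from null (log2, horizontal axis, n = 3 each) with SE for the 19 diterpenoid phytoalexin genes (left) and the 26 iron acquisition genes (right), red where called higher, blue where called lower and grey where not called. OsKO4, OsKSL4 and OsNAS1 have the largest differences and also wide errors, so they were not called, while OsNAS3 and OsYSL13 lie below 0 with small errors.

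Cytosolic ribosome genes read higher almost throughout the list. Ub-CEP52-2, which encodes ubiquitin fused to a ribosomal protein, read 11.50, 11.26 and 11.51 in gs1;1 and 10.66, 10.64 and 10.50 in null. It rose by 0.82 (SE 0.10, adjusted p = 0.0091), 1.77-fold, and held. 60SP0, the stalk protein P0 of the large subunit, read 11.18, 10.88 and 11.16 against 10.42, 10.29 and 10.21 and rose by 0.77 (SE 0.11, adjusted p = 0.0131), a call that ended without plant 158. RPL5A rose by 0.78, RPS26 by 0.74, RPL9 by 0.70 and RPL11 by 0.65. In each of these genes plant 124 was the lowest mutant, and the groups did not overlap.

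Of the 26 ribosome genes 13 rose (50.0%) and 0 fell, against 6.29% and 4.49% of all genes. At an unadjusted p under 0.05, 24 lay above 0 and 0 below 0, against 12783 of 57258 probe sets in both directions together. All 26 differences were above 0 (0.04 to 0.85), against 50.1% of all genes, and 24 had no overlap, against 20.8%. The median was 0.53, and it lay between 0.46 and 0.61 without each plant. The count of calls did not keep to that: it was 3 without plant 123, 13 without 124, 2 without 125, 5 without 156, 3 without 157 and 1 without 158. RPL18 (0.85, adjusted p = 0.1062) and RPL27 (0.56, adjusted p = 0.2780) had another order of mutants, with plant 123 highest by over 0.6, and these symbols could also stand for plastid proteins. The mean of the list was 11.47, 11.20 and 11.40 in gs1;1 and 10.91, 10.84 and 10.78 in null. The 3' minus 5' signals of ef1a and ubiquitin given at the outset separated the same groups, and their part in this result was not tested.

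DNA replication and cell cycle genes showed a smaller shift. CYCB2-2, a mitotic B-type cyclin, read 8.02, 7.81 and 8.43 in gs1;1 and 7.01, 6.76 and 6.81 in null. It rose by 1.23 (SE 0.16, adjusted p = 0.0097) and held. CDKB2-1, the kinase that works with such cyclins, read 7.76, 7.48 and 8.07 against 7.01, 6.95 and 6.84 and rose by 0.84 (adjusted p = 0.0210). OsMCM3, a subunit of the replicative helicase, read 6.17, 5.93 and 6.69 against 5.45, 5.44 and 5.22 and rose by 0.89 (adjusted p = 0.0329). In all 3 genes plant 125 was the highest mutant and plant 124 the lowest, and all mutants lay above all nulls. OsORC3 of the origin recognition complex rose by 0.91, CYCB1-1 (LOC4327547) by 0.84, H2B.11 by 0.62, the centromeric histone CenH3 by 0.61 and CYCD3-1 by 0.56. OsRPA32-2, a subunit of the single-strand DNA binding complex, fell by 0.54 (adjusted p = 0.0279).

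Of the 59 genes of this list 8 rose (13.6%) and 1 fell (1.69%), against 6.29% and 4.49% of all genes. Of these 9 calls 1 held. The median was 0.26, 46 differences were above 0 (78.0%, against 50.1% of all genes), and plant 124 was the lowest mutant in 47. OsPCNA, the sliding clamp of replication, at 0.62 was not called (adjusted p = 0.0710). The count of rises was 3 without plant 123, 11 without 124, 4 without 125, 5 without 156 and 1 without 157 or 158. The list mean was 7.17, 6.96 and 7.25 in gs1;1 and 6.91, 6.90 and 6.75 in null, so plant 124 exceeded null plant 156 by under 0.1. The same control transcripts separated the groups here too, and their part was not tested.

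Sugar metabolism held more called falls than rises. FRK1, a fructokinase, read 7.83, 7.87 and 8.31 in gs1;1 and 6.41, 6.81 and 6.66 in null and rose by 1.38 (SE 0.16, adjusted p = 0.0067, held). OsSUS5, a sucrose synthase, read 4.25, 4.74 and 4.54 against 6.14, 5.84 and 5.68, and OsSUT1, a sucrose transporter, 7.07, 6.80 and 7.16 against 7.83, 7.72 and 7.86. The latter fell by 0.79 (adjusted p = 0.0121), a call that ended without plant 158. Of the sucrose synthases OsSUS6 fell by 0.76 and OsSUS4 by 0.73, while OsSUS1 rose by 0.44. The invertases OsNIN1 and OsCIN7 fell by 0.44 and 0.41. In all, 2 of 48 genes of sucrose breakdown and glycolysis rose (4.17%) and 6 fell (12.5%), against 6.29% and 4.49% of all genes. The median was 0.00, and 2 of the 8 calls held.

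Of 16 starch genes 3 rose (18.8%) and 1 fell (6.25%), against 6.29% and 4.49% of all genes. OsAGPS2, a subunit of the ADP-glucose pyrophosphorylase that opens starch synthesis, read 9.91, 9.26 and 9.03 in gs1;1 and 8.01, 8.02 and 8.35 in null and rose by 1.27 (SE 0.22, adjusted p = 0.0190). SSII-2, a starch synthase, rose by 0.69, DPE2, a disproportionating enzyme, by 0.48, and the alpha-amylase AMY1.3 fell by 0.99. Among 6 genes of the shikimate and tryptophan route 3 rose (50.0%) and 0 fell, against the same shares of all genes, and 0 of the 3 calls held. OsASB1, an anthranilate synthase subunit, rose by 0.73, and DAHPS1 and DAHPS2, which open the shikimate pathway, by 0.63 and 0.59. Of the other anthranilate synthase subunits, OsASA2 stood at 0.36, OsASA1 at -0.29 and OsASB2 at -0.26, none of them called. Limma called 0 of the 15 genes of carbon skeleton supply, against 6.29% higher and 4.49% lower of all genes. Of the 15, 1 lay above 0 and 0 below 0 at an unadjusted p under 0.05, against 12783 of 57258 probe sets in both directions together. The differences of the 15 ran from -0.21 to 0.32, with SDH5 of succinate dehydrogenase at -0.21 (adjusted p = 0.4184).

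Jasmonate genes included 6 rises and 1 fall among 38 (15.8% and 2.63%), against 6.29% and 4.49% of all genes. The median was 0.16, and 0 of the 7 calls held. CM-LOX1, a lipoxygenase, read 7.44, 7.46 and 8.28 in gs1;1 and 6.54, 6.54 and 6.71 in null and rose by 1.13 (adjusted p = 0.0262). LOX3 rose by 1.09, LOX5 by 0.59, the allene oxide synthase AOS1 by 0.53, the repressor OsTIFY11b by 0.46 and the cyclase OsAOC by 0.39, and AOS3 fell by 1.19. Plant 125 was the highest mutant in 22 of the 38 and plant 123 the lowest in 21. Among 31 cytokinin genes there were 1 rise (3.23%) and 4 falls (12.9%), against the same shares of all genes, with a median of 0.12. The cytokinin oxidases split, OsCKX5 rising by 0.68 and OsCKX3 falling by 0.71 (adjusted p = 0.0134, held), while the activating enzyme LOGL7 fell by 0.79 and the response regulators RR22 and RR23 by 0.60 and 0.55.

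The phosphate and potassium lists held few calls, on both sides. OsPHR3, a transcription factor of the phosphate starvation response, read 9.23, 9.62 and 9.49 in gs1;1 and 10.58, 10.46 and 10.59 in null and fell by 1.10 (SE 0.12, adjusted p = 0.0060, held). Of the phosphate transporters OsPht1;4 fell by 0.69 and OsPht1;1 rose by 0.43, which gave 1 rise (5.26%) and 2 falls (10.5%) among 19, against 6.29% and 4.49% of all genes. Most of the 19 lay lower, with 4 differences above 0 (21.1%, against 50.1% of all genes) and a median of -0.11. Without overlap 6 lay lower and 1 higher, against 20.8% of all genes either way. Among 28 potassium genes the transporters OsHAK18, OsHAK23 and OsHAK10 fell by 0.66, 0.51 and 0.38, and the channels OsTPK3 and OsKCO1 rose by 0.57 and 0.41 (10.7% and 7.14%).

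Smaller counts came from the remaining lists, most with shares near the 6.29% called higher and 4.49% called lower of all genes. Called higher and lower were 7.41% each of the beta-glucosidases and of the redox genes. The shares were 6.67% and 0.00% for wall loosening and 3.03% and 6.06% for secondary wall and lignin. Among 27 beta-glucosidases BGLU8 (8.15, 8.04 and 8.59 against 7.16, 6.76 and 6.95) rose by 1.31 and held, BGLU5 rose by 1.91, and BGLU34 and BGLU9 fell by 1.12 and 0.41. Of 27 redox genes PRXIIE-2, a type II peroxiredoxin, rose by 1.42 and the peroxidase OsAPx6 by 0.53, while R1C-Prx and the catalase CAT-B fell, the latter by 0.45. OsWRKY24 (8.60, 8.34 and 8.22 against 7.26, 7.53 and 7.44), the only 1 of 6 WRKY factors called, rose by 0.98 and held. The expansins OsEXPB3 and OsEXPB2 rose by 0.99 and 0.57 among 30 wall-loosening genes. Of these 30, 23 differences were above 0 (76.7%, against 50.1% of all genes), with a median of 0.11. In NC2373 their median was -0.37. In the secondary wall and lignin list (33 genes) the laccases LAC24 and LAC7 fell by 0.90 and 0.67 and PAL06 of the phenylpropanoid entry step rose by 0.63. Heat shock genes had 2 falls among 45 (4.44%), OsHsf-25 at -0.72 and OsHsp18.1 at -0.56. Ethylene and low oxygen genes had 1 among 26 (3.85%), the signalling protein OsEIN2 at -0.47. Cold and dehydration genes had 1 among 27 (3.70%), the fall of RAB21.

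**Figure D4:**
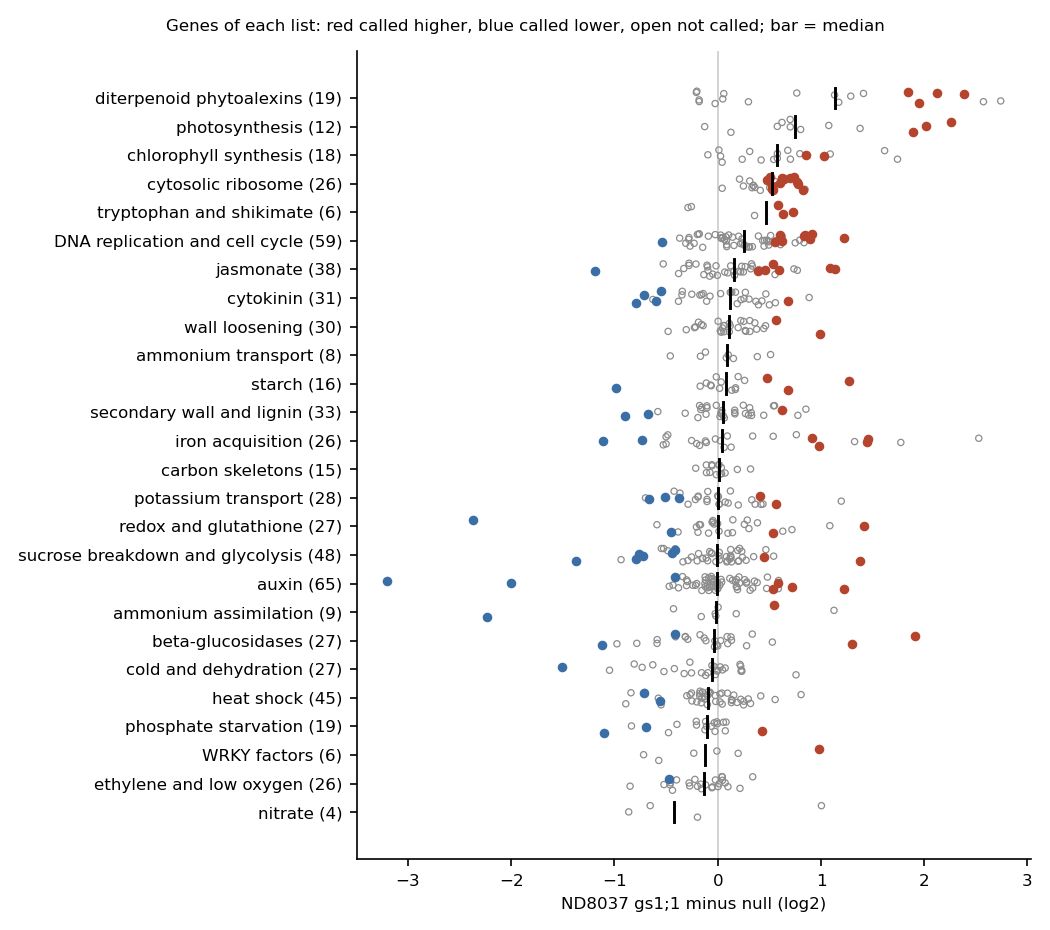
Difference of gs1;1 from null (log2, horizontal axis) for each gene of 26 lists (rows, number of genes in brackets), red where called higher, blue where called lower and open where not called, with a bar at the list median. The photosynthesis, chlorophyll synthesis, phytoalexin and ribosome lists have medians above 0.5 with no called fall, and most other lists have medians near 0 with calls on both sides.

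NC2373, the other gs1;1 line, was used to ask where ND8037 differs. The lines share no control plants, and their arrays were not normalized together, with a mean signal of 5.36 to 5.38 on the 6 ND8037 arrays and 5.93 on the other 11. The 3' minus 5' signal of actin was 4.75 to 4.99 on the 6 and 2.70 to 3.02 on the 11. Those of ef1a (-2.06 to -1.64 against -3.17 to -2.48) and ubiquitin (-0.38 to -0.21 against -0.52 to -0.39) did not overlap either. Those of GAPDH and cyclophilin overlapped. The part of these signals in the differences between lines was not tested. An effect of the line thus cannot be told apart from the array set. Effects in NC2373 and the differences between lines come from a limma fit over all 17 arrays. Of the 1786 probe sets called higher in ND8037, 60.8% had the same sign in NC2373, where 45.7% of all probe sets were above 0, and 364 were also called higher there. Those 364 are 20.4% of the ND8037 list and 15.6% of the 2330 called higher in NC2373 (4.07% of all probe sets). Of the 1427 called lower, 83.3% had the same sign (54.3% of all), and 370 were also called lower. They are 25.9% of the ND8037 list and 18.0% of the 2052 called lower in NC2373 (3.58%). In opposite directions 6 and 2 probe sets were called in both lines.

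Of the 15 largest named rises 12 had the same sign in NC2373 and 6 were also called there, and of the 15 falls 12 and 7. OsICL stood at -3.95 in NC2373, ILL3 at -4.73, OsrcaA1 at 3.18, OsKO5 at 2.44 and OsCPS4 at 1.97, all called. OsPIN4 stood at -0.35 (adjusted p = 0.7102), OsPIN2 at -0.16 (adjusted p = 0.8239), OsADC2 at -0.48, Agglutinin at -1.01, ENR at -0.23 and OsPM19L1 at 0.74, none of them called. The NC2373 value of OsADC2 had an SE of 0.94, with nulls at 10.59, 6.65 and 6.95 and homozygotes at 7.52 and 7.64. Its sign there thus rested on null plant 152. The test of the difference between lines called 5 probe sets in all (0.00873%), and none of these genes. It called 102 with only the 11 arrays of both lines, OsPIN2 (adjusted p = 0.0440) and OsPM19L1 (adjusted p = 0.0497) among them, and 22 without ND8037 gs1;1 plant 123, with none of these genes. For OsPIN4 the ND8037 effect minus the NC2373 effect was -1.65 (adjusted p = 0.1746), for OsPIN2 1.39 (adjusted p = 0.1414), for OsPM19L1 -2.01 (adjusted p = 0.1375) and for OsGS1;1 itself 1.13 (adjusted p = 0.1415).

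The ribosome and cell cycle lists had the highest shares of genes with a low unadjusted p for the difference between lines. In NC2373 the 26 ribosome genes had a median of -0.00 with 1 called higher, RPL27, and 60SP0 at -0.03. The difference between lines had an unadjusted p under 0.05 in 21 of the 26 (80.8%), with the ND8037 effect above the NC2373 effect in all 21, against 24.7% of all genes (15.4% with ND8037 above). None of the 26 was called after adjustment, nor with only the 11 arrays of both lines or without plant 123. In the cell cycle list the NC2373 median was -0.09 with 2 rises and 5 falls, and 29 of 59 genes (49.2%) had an unadjusted p under 0.05 for the difference, 26 of them with ND8037 above and none called, also in those 2 fits. CYCB2-2 stood at -0.22 in NC2373 (adjusted p = 0.6830). In the photosynthesis list, by contrast, 1 of 12 genes reached an unadjusted p under 0.05 (8.33%), and the NC2373 median was 1.25 with 8 rises. In the phytoalexin list 2 of 19 did so (10.5%), with an NC2373 median of 1.23.

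**Figure D5:**
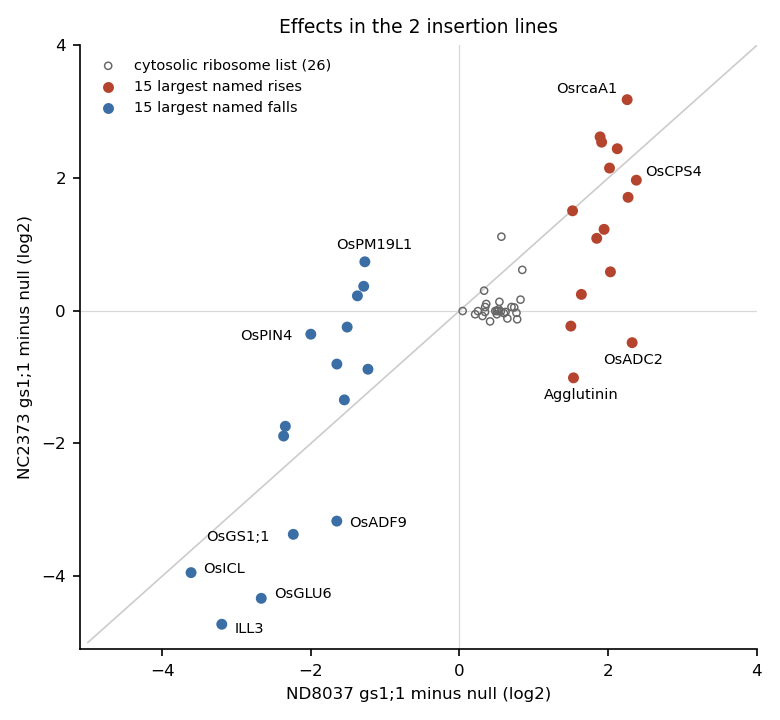
Difference of gs1;1 from null in ND8037 (horizontal axis, log2) and in NC2373 (vertical axis, log2) for the 15 largest named rises (red) and 15 largest named falls (blue) of ND8037 and for the 26 ribosome genes (open circles), with a line where the effects are equal. OsICL, OsGS1;1 and OsrcaA1 lie far from 0 in both lines, and OsPIN4 (-2.00 and -0.35) and OsADC2 (2.32 and -0.48) do so in ND8037. The NC2373 value of OsADC2 has an SE of 0.94, with null plant 152 at 10.59 and the other nulls at 6.65 and 6.95. Most ribosome genes lie right of 0 at an NC2373 difference near 0.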

How the data were processed

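Per the labels' protocols, a column kit (RNeasy Plant Mini) gave the total RNA and the GeneChip 3' IVT Express kit its biotin label. The deposited table holds log2 values that the authors made with RMA, per the submitters' processing notes (its software is not given in the sources used here). The method sets the arrays of a run to a common distribution, so a level is comparable only within a run. The labels do not say that the ND8037 arrays were run apart, which is inferred from their signal distributions.

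The table has 57381 probe sets, of which 57258 entered the test without a signal filter and 123 are Affymetrix controls, which did not. A mean per group was fitted to the 6 arrays with limma 3.58.1 in R 4.3.3 (lmFit, eBayes, two-sided), which left 4 residual degrees of freedom, a prior of 4.085 and a median SE of 0.1117. The number of arrays limits the precision. Line differences were contrasts over all 17 arrays (11 residual degrees of freedom, median SE 0.1702). The fit was tested on simulated data. Python 3.11.15 with matplotlib 3.10.9 made the plots.

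Genes came from the platform annotation joined to a RefSeq gene table: 22436 probe sets had 1 gene (all found in RefSeq), 95 several and 34727 none listed here. Of 17905 genes 2457 had a name beyond an identifier. Lists were set by symbol or synonym, with the brightest probe set per gene. Named were the assimilation and transport genes, up to 6 members of each other list, and the 15 largest rises and 15 largest falls. These were called genes with names and no overlap of the groups. Values of further members are given as examples and were chosen after they were seen. The comparison and lists were chosen with earlier results of these data known. Alternatives were other scalings, a signal filter, other variance models and leaving out each plant.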

Additional observations from a re-analysis of the deposited data

Results flagged for a closer look

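The test of the difference between lines called 5 of 57258 probe sets (0.00873%), with 9136 at an unadjusted p under 0.05. In all 5 the NC2373 effect was farther from 0 than the ND8037 effect. Probe set Os.56938.1.S1_at, which has no gene listed here, read 6.77, 6.72 and 6.63 in ND8037 gs1;1 and 6.03, 6.41 and 6.07 in its null. It rose by 0.54 there and by 2.21 in NC2373, a difference of -1.67 (adjusted p = 0.0080). CML5, named after the calmodulin-like calcium sensors, read 6.31, 6.49 and 6.29 against 5.64, 5.80 and 5.80. It rose by 0.61 in ND8037 and fell by 0.94 in NC2373, so the lines went opposite ways (1.55, adjusted p = 0.0409). The gene LOC4327573 stood at 0.32 in ND8037, where its groups overlapped and it was not called, and at 2.22 in NC2373 (-1.91, adjusted p = 0.0409). Probe set OsAffx.30192.1.S1_at stood at -0.13 and 0.65 (-0.78, adjusted p = 0.0409), and Os.14210.1.S1_at at 0.22 and -1.72 (1.94, adjusted p = 0.0491). Neither was called in ND8037. In none of them can the line be told apart from the array set.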

How the results depend on the processing

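No paired analysis was possible because the gs1;1 and null plants carry different plant numbers. With all 17 arrays in the fit, 5200 probe sets were called (2680 lower), with 21 ribosome, 14 cell cycle and 5 chlorophyll genes higher and 4 iron genes lower. With only probe sets above the median signal, 4 chlorophyll and 13 cell cycle genes were higher, 6 iron genes were lower and 2 probe sets differed between lines. Iron falls numbered 5 after quantile normalization and 5 with an intensity trend and robust prior. Without moderation of the spread each count was 0, and OsGS1;1 kept its value (-2.24) with an adjusted p of 0.0941. With only the 11 arrays of the lines, 102 probe sets differed between them, against 5. Leaving out each plant in turn gave 602 to 2076 calls, 323 to 1264 higher, 279 to 812 lower and 316 to 721 of at least 2-fold. It gave 0 to 4 photosynthesis, 0 to 5 chlorophyll, 0 to 9 phytoalexin, 0 to 2 iron, 1 to 13 ribosome and 1 to 11 cell cycle genes higher, 2 to 3 iron genes lower and 1 to 22 probe sets that differed between lines (22 without ND8037 gs1;1 plant 123). OsGS1;1 ranged from -2.40 to -2.00 (adjusted p = 0.0079 to 0.0205). The cause of these moves was not tested.

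Of 101 called named genes, 15 lost the call with all 17 arrays in the fit (GLT2, LOX5, AOS1, OsTIFY11b, RAB21, OsSUS4, OsSUS1, AMY1.3, OsEXPB3, OsEXPB2, OsHsp18.1, OsARF8, BGLU9, OsADC2 and the peroxidase of LOC4344277). Quantile normalization ended 3 (CYCB1-1, OsKCO1 and PAL06), the intensity trend with a robust prior 1 (BGLU5) and the fit without moderation all 101, OsGS1;1 among them. Signs changed in the following genes, none of them called. After quantile normalization OsGLN1;3 (OsGS1;3) was 0.0059 and Fd-GOGAT -0.0227, and with median centring OsWRKY51 was 0.0038. Leaving out 1 plant gave OsGDH2 -0.2484 to 0.0086, OsGDH3 -0.1534 to 0.1498, OsGLN1;3 -0.1761 to 0.1595, Fd-GOGAT -0.0349 to 0.0703, OsAMT1;2 -0.3158 to 0.0240, OsAMT3;3 -0.1374 to 0.3042, SDH1 -0.1982 to 0.0112, OsWRKY76 -1.0425 to 0.0937 and OsWRKY51 -0.1364 to 0.1088. Among the other smaller results, 1928 values kept direction and side of the threshold, 425 lost a call, 67 gained one and 189 moved beyond the replicate spread or 1.5 times.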

Other observations

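The largest changes of all lay in probe sets outside the rule for named genes, and they were chosen after their values were seen. Os.46700.1.S1_at, with no gene listed here, read 2.75, 3.63 and 4.12 in gs1;1 and 9.54, 10.49 and 9.47 in null. It fell by 6.33 (SE 0.37, adjusted p = 0.0014), 80.5-fold, kept its call without each plant and stood at -6.56 in NC2373 (adjusted p = 3.95e-05). The mutant signals are near the low end of the array, and no detection call comes with these values. OsAffx.30449.1.S1_at, with no gene listed here either, read 2.67, 4.99 and 4.84 against 8.08, 8.24 and 7.71. It fell by 3.84 (SE 0.54, adjusted p = 0.0117), kept its call without each plant and stood at -5.21 in NC2373 (adjusted p = 2.93e-04). Probe sets OsAffx.25004.1.S1_at and OsAffx.25004.1.S1_s_at, the latter of the gene LOC4331755, fell by 4.05 and 3.74. LOC4331755 read 3.18, 3.89 and 3.87 against 7.39, 7.04 and 7.71 and stood at -2.21 in NC2373 (adjusted p = 0.0091).

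LOC4351693 had the largest rise. It read 5.30, 7.54 and 8.51 in gs1;1 and 3.63, 3.68 and 3.42 in null, a rise of 3.54 (SE 0.67, adjusted p = 0.0265), 11.6-fold. The nulls lay within 0.3 of each other and the mutants over 3 apart, and the call did not hold without each plant. NC2373 had -0.72 (adjusted p = 0.6915), and the difference between lines was 4.26 (adjusted p = 0.1375).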
